A study of Mus musculus with 48 samples.

Results

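SMC3, a core subunit of the cohesin ring, was mapped in mouse embryonic stem cells whose only induced CTCF carried the K365T change, and the resulting peak list was set against the list from cells that expressed wild-type (WT) CTCF from the same kind of transgene. The comparison rests on 4 of the 48 samples of the series, 2 for each genotype, which the authors pooled into 1 SMC3 peak list per genotype with 71962 peaks in WT and 88092 in K365T. A WT peak was counted as kept if at least 1 bp of it overlapped a K365T SMC3 peak and as lost otherwise, and a K365T peak that overlapped no WT SMC3 peak was counted as gained. Lost and gained are therefore statements about presence in a list and not about the amount of cohesin.

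All cells were E14Tg2a embryonic stem cells (strain 129/Ola), grown without feeders in medium with leukemia inhibitory factor and inhibitors of GSK3 and MEK. Every line carried an auxin-inducible degron on endogenous CTCF and a doxycycline-inducible, FLAG-tagged Ctcf transgene. Both the WT and the K365T cells received 500 µM indole-3-acetic acid (an auxin, abbreviated IAA), which targets the endogenous protein for degradation, together with 1 µg/ml doxycycline for 2 days. The series compares the WT transgene with 9 single-residue mutants in the CTCF DNA-binding domain, to ask how such changes affect where CTCF and cohesin sit. The labels do not say how many clones stand for each genotype, nor how much transgene protein each line made. Chromatin was fixed with EGS and formaldehyde and profiled by ChIPmentation, in which a transposase inserts sequencing adapters into the immunoprecipitated chromatin.

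Cohesin is a ring-shaped complex that holds sister chromatids together and, in interphase, extrudes loops of DNA. CTCF binds DNA through an array of zinc fingers and stops extruding cohesin when its N-terminal side faces the incoming complex, so cohesin accumulates at many CTCF sites. Cohesin is also found where it is loaded or held up for other reasons, such as active promoters and enhancers, and there it need not be accompanied by CTCF.

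Each SMC3 peak was placed in 1 of 3 classes. The first class overlapped a FLAG peak of WT cells, where the transgenic CTCF itself was found. The second overlapped no WT FLAG peak but a peak of the CTCF antibody in WT cells, either with IAA and doxycycline or untreated. The third lay away from both. It is also called away from CTCF below, although 159 of its WT and 479 of its K365T SMC3 peaks overlapped a K365T FLAG peak. The WT FLAG list holds 15392 peaks, the K365T FLAG list 13151, and the CTCF antibody lists 116973 treated and 175815 untreated peaks.

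The promoters of Slc36a1, Trappc3, Peg12 and Ypel5 show the 4 combinations of CTCF and cohesin on which the comparison turns. Each window runs from 250 bp before to 50 bp after the gene start in the RefSeq annotation of GRCm38.p6 (mm10), 5′ to 3′ on the strand of the gene. Capitals mark the match to a short CTCF core motif, which was searched on both strands as CC, any 3 bases, AG, any 2 bases and GGC; no other motif was searched, and a match is a description of letters and not of a binding site. At Slc36a1 (chr11:55204090-55204389, plus strand), which encodes a lysosomal amino acid transporter, FLAG and SMC3 peaks were present in both genotypes. At Trappc3 (chr4:126262155-126262454, plus strand), which encodes a subunit of the TRAPP trafficking complex, SMC3 was present in both genotypes and FLAG only in WT. At Peg12 (chr7:62464461-62464760, minus strand), a paternally expressed imprinted gene, both FLAG and SMC3 were listed only in WT. At Ypel5 (chr17:72836378-72836677, plus strand), both were listed only in K365T.
Slc36a1: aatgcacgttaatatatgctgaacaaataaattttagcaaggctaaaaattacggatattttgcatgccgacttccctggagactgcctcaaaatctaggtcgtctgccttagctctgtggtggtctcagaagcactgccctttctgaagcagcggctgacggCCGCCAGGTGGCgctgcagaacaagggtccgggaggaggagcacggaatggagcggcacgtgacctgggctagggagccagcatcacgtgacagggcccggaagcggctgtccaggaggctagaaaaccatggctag
Trappc3: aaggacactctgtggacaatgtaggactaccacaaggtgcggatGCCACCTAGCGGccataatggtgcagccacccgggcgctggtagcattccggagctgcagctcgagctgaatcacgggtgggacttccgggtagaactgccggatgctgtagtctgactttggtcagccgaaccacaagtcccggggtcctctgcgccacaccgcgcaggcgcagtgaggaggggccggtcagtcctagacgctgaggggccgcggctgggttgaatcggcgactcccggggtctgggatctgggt
Peg12: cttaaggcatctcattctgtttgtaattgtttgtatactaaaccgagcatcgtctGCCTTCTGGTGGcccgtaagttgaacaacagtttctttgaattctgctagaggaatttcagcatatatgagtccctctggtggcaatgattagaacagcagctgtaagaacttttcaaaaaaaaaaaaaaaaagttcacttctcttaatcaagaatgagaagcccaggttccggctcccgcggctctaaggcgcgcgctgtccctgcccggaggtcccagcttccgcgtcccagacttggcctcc
Ypel5: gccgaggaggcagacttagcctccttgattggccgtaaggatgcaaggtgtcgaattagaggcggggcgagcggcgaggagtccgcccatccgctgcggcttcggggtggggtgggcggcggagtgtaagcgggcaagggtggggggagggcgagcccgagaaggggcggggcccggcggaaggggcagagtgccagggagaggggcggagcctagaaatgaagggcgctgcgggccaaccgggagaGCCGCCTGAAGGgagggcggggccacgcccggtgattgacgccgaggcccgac

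The value in the fifth column of a list comes from the authors' peak calling and serves here only to rank the peaks of that list. At Slc36a1 the SMC3 value was 19.17 in the WT list and 40.96 in the K365T list, the highest of the latter, on a chromosome that has more K365T than WT peaks as described further on. At Trappc3 it was 16.57 in the WT list and 9.227 in the K365T list. Peg12 had a WT SMC3 value of 6.148 with a WT FLAG value of 5.998. Ypel5 had a K365T SMC3 value of 14.48 with a K365T FLAG value of 12.93. They are the windows ranked highest by SMC3 value in their state among those with a motif match (by the K365T value for Slc36a1 and Ypel5, by the WT value for the others). Of windows with a match, 207 had both marks in both genotypes, 83 had SMC3 in both and FLAG only in WT, 21 had both marks only in WT and 14 only in K365T.

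Of the 71962 WT SMC3 peaks, 41572 were kept in K365T (57.8%, 95% Wilson interval 57.4 to 58.1) and 30390 were lost (42.2%). Of the 88092 K365T peaks, 46379 were gained (52.6%). Each genotype is 1 pooled list, so there is no replicate spread and no test between genotypes, and all intervals over peaks cover counting error only. The share kept was highest where the WT transgene bound, although most kept peaks lay elsewhere. At WT FLAG peaks 11124 of 12363 SMC3 peaks were kept (90.0%, 89.4 to 90.5), at other CTCF antibody peaks 12801 of 22226 (57.6%) and away from both 17647 of 37373 (47.2%). The interval at WT FLAG peaks did not overlap those of the other classes.

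Gained peaks showed the opposite order. In the K365T list 573 of 11706 peaks at WT FLAG peaks were gained (4.90%), against 13531 of 26544 at other CTCF antibody peaks (51.0%) and 32275 of 49842 away from both (64.8%). Peaks away from CTCF thus made up 69.6% of gained and 64.9% of lost peaks, while WT FLAG peaks made up 1.24% of gained and 4.08% of lost peaks. Some of the turnover was close by: 23.5% of lost WT peaks had a K365T SMC3 peak within 500 bp, and 19.9% of gained peaks had a WT peak within that distance. At other CTCF antibody peaks this share of lost peaks was 31.6%.

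The strength of the WT peak went with whether it was kept. Among peaks away from CTCF, 34.9% were kept in the weakest decile of the WT list, 89.8% in decile 9 and 64 of 64 in the strongest decile. For the WT FLAG class the share was 51.0% in the weakest decile, where only 102 peaks lay, and 98.8% in the strongest, which held 6806 of the class. At other CTCF antibody peaks it went from 45.7% to 90.2%. From decile 7 upward the 3 classes lay closer together: in decile 8 the shares were 75.0% at WT FLAG peaks, 73.5% at other CTCF antibody peaks and 73.8% away from both. In decile 9 they were 87.2%, 81.1% and 89.8% in the same order, and in decile 10 they were 98.8%, 90.2% and 100%. In deciles 9 and 10 the share kept was therefore highest away from both. WT FLAG peaks thus differed most from the other classes in the weaker deciles and in how many of them were strong.

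**Figure D1:**
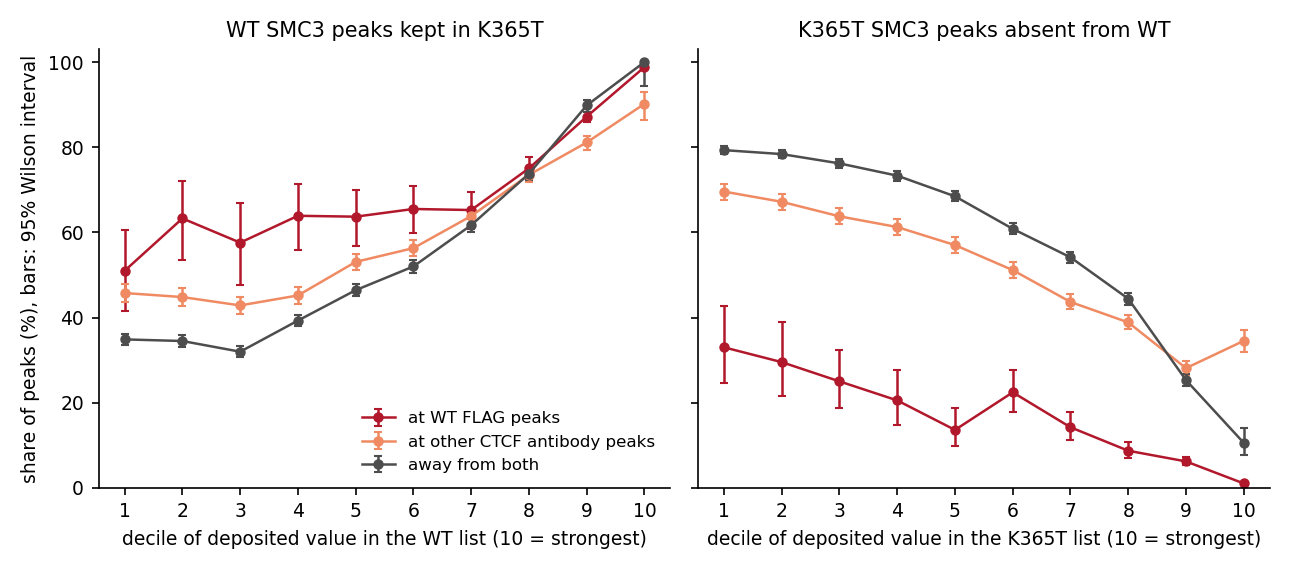
Left, the share of WT SMC3 peaks kept in K365T (y axis, percent) by decile of the deposited value in the WT list (x axis); right, the share of K365T SMC3 peaks absent from the WT list by decile in the K365T list. Points are shares over peaks of 1 pooled list per genotype with 95% Wilson intervals; in decile 8 of the WT list the 3 classes lie between 73.5% and 75.0%.

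Lost peaks were weak and narrow. The median WT value was 3.475 for kept and 2.891 for lost peaks, and the median width 293 bp against 173 bp. For peaks at WT FLAG sites the medians were 7.058 kept and 3.903 lost, at other CTCF antibody peaks 3.336 and 2.940, and away from both 3.127 and 2.807. No lost peak had a value above 9.757, whereas the WT list reaches 43.97. Gained peaks had a median value of 2.942 in the K365T list against 3.644 for its shared peaks, and their highest value was 26.55. In the strongest decile of the K365T list, 34.5% of peaks at other CTCF antibody peaks were gained (437 of 1266), against 1.03% at WT FLAG peaks (74 of 7183) and 10.6% away from both (38 of 360).

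Whether K365T CTCF was itself found at the site separated SMC3 peaks further. At WT FLAG peaks where the K365T FLAG list also had a peak, 7124 of 7239 SMC3 peaks were kept (98.4%). Where it had none, 4000 of 5124 were kept (78.1%). The difference was 20.3 percentage points (95% Newcombe interval 19.2 to 21.5). Sites with K365T FLAG had stronger SMC3 in WT to begin with, with a median of 7.783 against 5.480. Standardised over deciles of WT SMC3 value the difference was 13.9 points, and over deciles of WT FLAG value 17.1 points. When the class was cut into 4 equal groups by WT SMC3 value, 92.0% in the weakest group were kept with K365T FLAG and 56.8% without, and in the strongest 100% (2498 of 2498) and 99.8% (591 of 592). The other classes had few K365T FLAG peaks. Of WT SMC3 peaks with one, 764 of 805 were kept at other CTCF antibody peaks (94.9%, against 56.2% without). Away from both 141 of 159 were kept (88.7%, against 47.0%). In the K365T list most SMC3 peaks of these classes with a K365T FLAG peak were gained. They were 1485 of 2247 at other CTCF antibody peaks (66.1%, against 49.6% without) and 346 of 479 away from both (72.2%, against 64.7%). On chromosomes 1, 8 and 11, described further on, the gained share was not higher with K365T FLAG. There it was 67.45% against 69.27% at other CTCF antibody peaks and 72.46% against 82.18% away from both.

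The split by K365T FLAG at WT FLAG sites also appeared in the K365T values of peaks that were kept. At kept peaks of the WT FLAG class, the median K365T SMC3 value was 9.086 with a K365T FLAG peak, where the WT median was 7.886. Without a K365T FLAG peak it was 4.703, where the WT median was 6.014. Values of the K365T and WT lists are not on a shared scale, so the peaks were placed in 20 bins of equal size by WT value and the K365T values were compared within each bin. The median was higher with K365T FLAG in 20 of 20 bins. The ratio was 1.26 in the weakest bin and 1.75 in the strongest, with a median of 1.55.

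**Figure D2:**
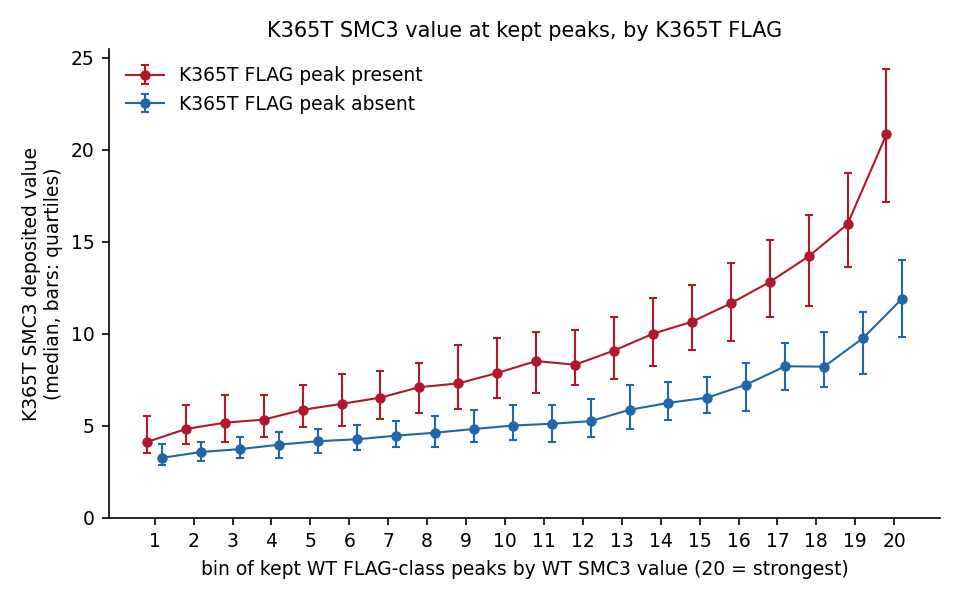
Deposited K365T SMC3 value (y axis, median with quartiles as bars) at kept peaks of the WT FLAG class, in 20 bins by their WT SMC3 value (x axis), with and without a K365T FLAG peak. The median with K365T FLAG lies above that without in 20 of 20 bins, by a ratio of 1.26 in bin 1 and 1.75 in bin 20.

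The K365T FLAG split of these sites was also seen in the SMC3 lists of other mutants. Lists of R342C, R377H, R448Q and H455R carry the same library tag, b1, as those of K365T and WT. They were set against the same WT list, so these comparisons are not independent of one another. Of WT SMC3 peaks at WT FLAG sites, H455R kept 88.7% where K365T FLAG was present and 63.7% where it was absent, a gap of 25.0 points. The gap was 12.0 points in R377H (96.3% against 84.3%), beside 20.3 in K365T. It was 4.63 in R342C (98.5% against 93.9%) and 3.30 in R448Q (99.3% against 96.0%). The gap in share kept is thus not larger in K365T than in every other mutant. In R342C and R448Q the high share kept without K365T FLAG left little room for a gap. The value ratio in bins matched on WT value had a median of 1.15 in R342C, 1.22 in H455R, 1.23 in R377H and 1.32 in R448Q, beside 1.55 in K365T; in R342C it was above 1 in 18 of 20 bins and in the others in 20 of 20. What part of the split belongs to the K365T protein and what part to the sites was not tested.

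**Figure D3:**
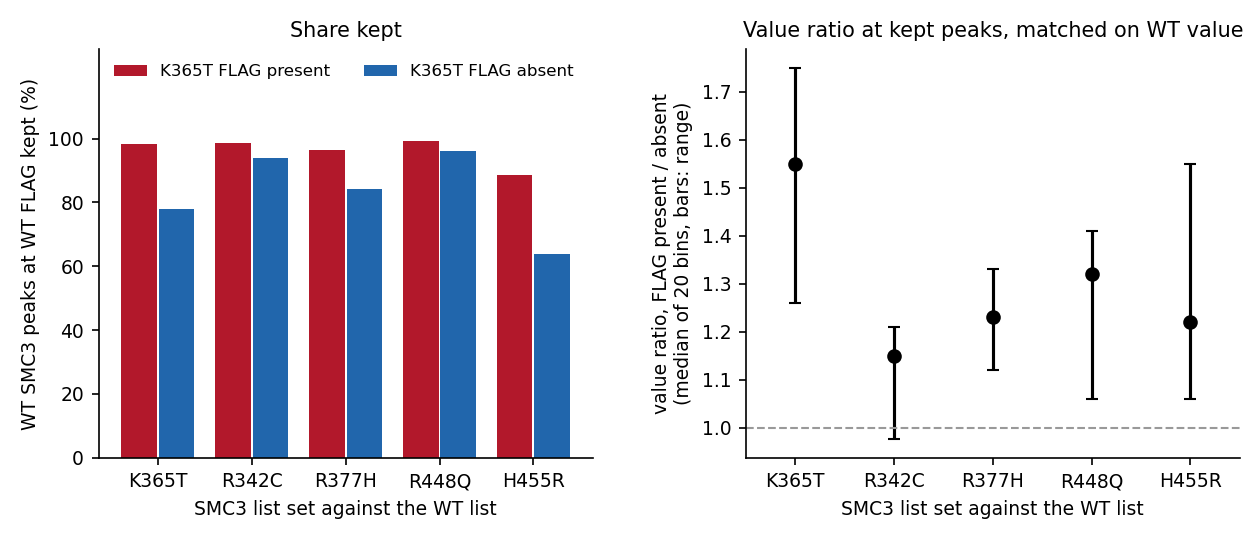
Left, the share of WT SMC3 peaks at WT FLAG sites (y axis, percent) kept in the SMC3 list of K365T and of 4 other mutants tagged b1 (x axis), split by presence of a K365T FLAG peak; right, the ratio of the median value with K365T FLAG to that without, with points for the median over 20 bins matched on WT value and bars for the lowest and highest bin. The median ratio is 1.55 in K365T and 1.15 to 1.32 in the others.

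Seen from the FLAG sites, cohesin was listed most often where both proteins were found. Of 8019 WT FLAG peaks that overlapped a K365T FLAG peak, 90.8% had SMC3 in WT and 93.8% in K365T. Of 7373 FLAG peaks found only in WT, 70.8% had SMC3 in WT and 58.4% in K365T, and 15.6% (1153 sites) had SMC3 in WT but not in K365T. Of 5131 FLAG peaks found only in K365T, 19.3% had SMC3 in WT and 54.6% in K365T, and 36.6% had SMC3 in K365T but not in WT. Of these K365T-only sites, 1852 lay outside both CTCF antibody lists, and there the shares were 8.69% in WT and 26.7% in K365T. Of those 1852 sites 1070 were on chromosomes 1, 8 and 11, whose peak numbers are described further on, and on the remaining chromosomes the shares over 782 sites were 11.1% and 32.1%.

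**Figure D4:**
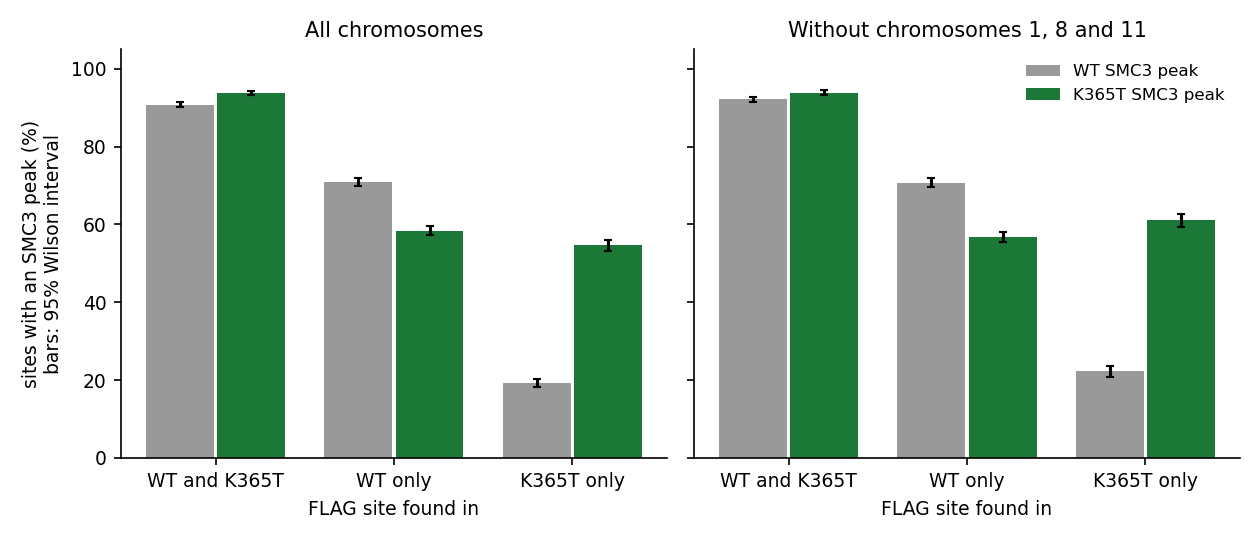
Share of FLAG sites with an SMC3 peak in the WT list and in the K365T list (y axis, percent, 95% Wilson intervals over sites) for FLAG peaks of both genotypes, of WT only and of K365T only (x axis), on all chromosomes and without chromosomes 1, 8 and 11. At K365T-only sites the share is 19.3% in WT and 54.6% in K365T on all chromosomes, and 22.2% and 61.0% without those 3.

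The gained peaks were spread unevenly over the chromosomes. Chromosome 11 had 3458 SMC3 peaks in WT and 10609 in K365T, a ratio of 3.07. On chromosome 1 the numbers were 3334 and 9190 (2.76), and on chromosome 8 they were 2681 and 5326 (1.99). On the other 17 chromosomes the ratio lay between 0.770 (chromosome 12) and 1.41 (chromosome 3), with a median of 1.01. FLAG peaks showed the same 3 chromosomes, with ratios of 1.46 (chromosome 1), 1.41 (chromosome 11) and 1.14 (chromosome 8) against 0.593 to 0.990 elsewhere. The excess ran along the whole length of each: in windows of 20 Mb the SMC3 ratio was 2.38 to 3.39 on chromosome 1, 1.84 to 2.27 on chromosome 8 and 2.78 to 3.68 on chromosome 11. Elsewhere it exceeded 1.5 in 4 of 8 windows of chromosome 3 and 1 of 4 of chromosome 17.

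**Figure D5:**
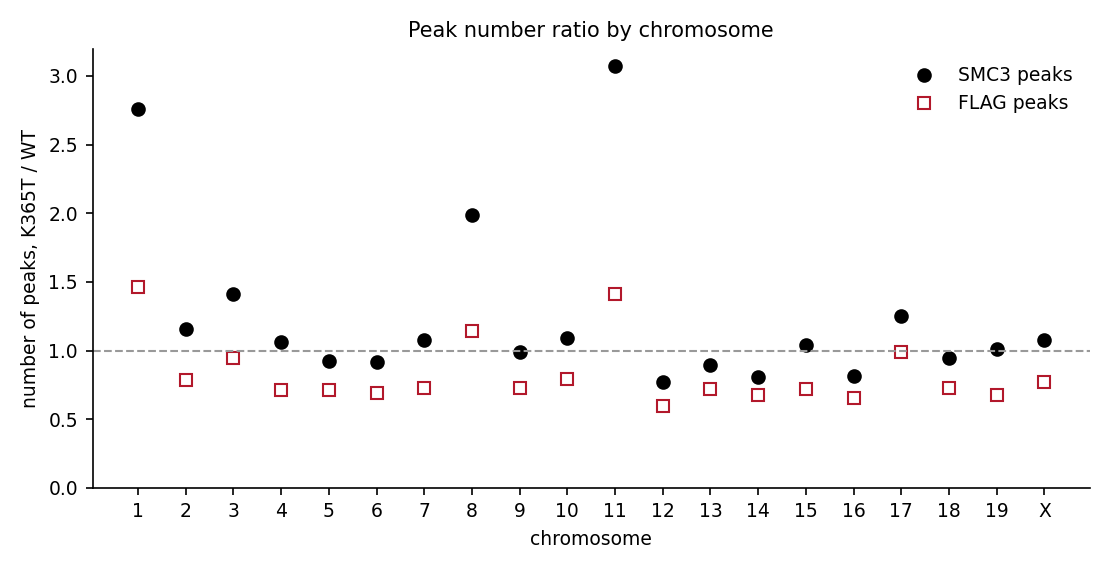
Number of K365T peaks divided by the number of WT peaks (y axis) on each chromosome (x axis), for SMC3 (filled circles) and FLAG (open squares); each point is 1 pair of pooled lists, and the dashed line marks equal numbers. Chromosomes 1, 8 and 11 have SMC3 ratios of 2.76, 1.99 and 3.07, and the other 17 lie between 0.770 and 1.41.

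These 3 chromosomes held 13.2% of WT peaks but 38.7% of gained and 6.63% of lost peaks. On them 78.7% of WT peaks were kept and 71.5% of K365T peaks were gained, against 54.6% and 45.1% on the remaining chromosomes. On each of them the ratio was highest away from CTCF (3.79 on chromosome 1, 2.57 on chromosome 8 and 4.59 on chromosome 11) and close to 1 at WT FLAG peaks (1.04, 1.02 and 1.05). On the other 17 chromosomes the ratio at WT FLAG peaks was lower, between 0.843 (chromosome 12) and 0.970 (chromosome 17). The share kept at WT FLAG peaks was 94.6% to 96.6% on these 3 chromosomes and 79.5% to 92.8% on the other 17. On chromosome 1 the number of peaks was 1642 in WT and 6223 in K365T away from both, 950 and 2195 at other CTCF antibody peaks, and 742 and 772 at WT FLAG peaks. Without the 3 chromosomes 88.7% of SMC3 peaks were kept at WT FLAG peaks, 54.8% at other CTCF antibody peaks and 44.1% away from both, and the difference by K365T FLAG was 21.5 points. K365T-only FLAG sites then had SMC3 at 22.2% in WT and 61.0% in K365T. Other SMC3 lists also had chromosomes with a large share. Chromosome 11 held 16.0% of the R377H list and 12.0% of the K365T list against 4.81% in WT, and chromosome 8 held 12.4% of the H455R list against 3.73% in WT. In the R448Q list chromosome 1 held 11.3%, chromosome 8 8.29% and chromosome 11 8.09%, and in the Q418R list chromosome 1 held 7.86%, beside 10.4% in K365T and 4.63% in WT for chromosome 1. The labels give no karyotype and no input library was used here, so what sets the number of peaks per chromosome was not tested.

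By location, kept peaks lay near gene starts more often than lost peaks. Chromosome 18 was left out of this count, since the table of starts used here has none for it. Of kept peaks 15.5% lay within 1 kb of a gene start, 46.8% in a gene body and 37.7% between genes. Lost peaks had 9.84% near a start and 53.2% in gene bodies, and gained peaks 13.4% and 52.1%. Of all WT peaks near a start 68.5% were kept (6261 of 9134), against 54.8% in gene bodies and 58.4% between genes. The same direction held in each class: 18.8% of kept and 10.7% of lost peaks lay near a start at other CTCF antibody peaks, 17.0% and 9.68% away from both, and 9.39% and 6.10% at WT FLAG peaks.

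Promoter windows with SMC3 in both genotypes held the CTCF core motif more often than others. The motif was found in 8.67% of 32583 promoter windows. It was found in 17.7% of the 3673 windows with SMC3 in WT and K365T, in 13.7% of 1238 with SMC3 only in WT and in 11.4% of 3002 with SMC3 only in K365T. Among windows with FLAG peaks it was found in 47.5% of 465 with FLAG in both genotypes, in 45.8% of 264 with WT FLAG only and in 12.6% of 191 with K365T FLAG only, which gives a 95% interval of 8.59% to 18.0%.

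The strongest SMC3 peaks lost at a WT FLAG site without K365T FLAG lay near genes of varied function. The highest, with a value of 9.757, was at chr15:56856134-56856328, between genes and 162 kb from Has2, which encodes a hyaluronan synthase; 7 of the 8 other mutants had SMC3 there. The next was 5.07 kb from Gna11, a G protein α subunit (chr10:81550236-81550583, value 9.489), where 8 of 8 other mutants had a peak. One in the gene body of Epb41l4b (chr4:57021426-57021614) had 9.222, with SMC3 in 6 others, and one in Ppil6 (chr10:41505562-41506624), a cyclophilin-like gene, had 9.089, with SMC3 in 8 of 8. A peak 16.6 kb from Hpcal1, a calcium sensor of the neuronal family, had 8.821 and SMC3 in 4 others. At the Gna11 and Ppil6 sites K365T was thus the only mutant list without a peak.

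Where K365T FLAG was present, the strongest lost SMC3 peaks had lower values. Far fewer peaks were lost there (7124 of 7239 kept, against 4000 of 5124 without), and the values of the 2 groups as wholes were not compared. The highest lay in Dnah6, an axonemal dynein heavy chain gene (value 5.985), followed by peaks near Pls3 (5.747), an actin-bundling protein, and Psg22 (5.613), a pregnancy-specific glycoprotein. Peaks near Ctnnd1 (5.480), p120-catenin, and in Chrm1 (5.413), a muscarinic receptor, came next. The Pls3 peak lies beside peak numbers missing from the K365T list, where a peak may have been removed before deposit. Among the strongest lost peaks at other CTCF antibody sites were those in Dnah3 (8.153, also beside missing numbers), Medag (7.886) and Lrrc51 (7.739). SMC3 was present in 6 other mutants at Dnah3 and at Lrrc51 and in 3 at Medag. Away from CTCF the strongest lost peaks were near Mill1 (5.881), in a lncRNA gene 96.9 kb from Abcc4 (5.480) and in Ncoa4 (5.346), a ferritinophagy receptor gene. Peaks near Tle3 (5.346), a Groucho-family corepressor, and in Traip (5.237), a ubiquitin ligase gene, completed that group; 8 other mutants had SMC3 at Ncoa4 and 2 at Traip.

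The strongest kept peaks without and with a K365T FLAG peak are given with their values in the WT and the K365T list. These groups were not matched on WT value, and the lists are not on a shared scale. Without a K365T FLAG peak, the peak 18.7 kb from Fnbp1l (chr3:122638396-122639995) had 32.65 in the WT list and 14.43 in the K365T list. The one in Col18a1 (chr10:77130399-77131839), a basement membrane collagen gene, had 32.02 and 17.87, and the one near Gramd4 27.53 and 18.03. Dnah17 had 27.53 and 14.77, and the peak near Man2b2, a lysosomal mannosidase gene, 26.87 and 26.01. With a K365T FLAG peak, the site 60.6 kb from Sestd1 (chr2:77341190-77342747) had 43.97 and 34.21. Lrrc74a had 35.60 and 28.72 and Pink1, a mitochondrial kinase gene, 33.15 and 29.39. Dtnbp1 had 32.75 and 32.65, and Cyfip2, a gene of the WAVE actin complex, 32.56 and 31.88. The 8 other mutants had SMC3 at each of these 10 sites.

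Strong kept peaks away from CTCF reached lower values. The peak 18.4 kb from Cpz had 9.854 in WT and 8.003 in K365T, and the one nearest to Gm6569 had 9.356 and 10.36; both overlapped a K365T FLAG peak although no WT FLAG or CTCF antibody peak was there. Peaks near Igsf21 (9.183 and 7.447), Rybp (8.582 and 9.781), which encodes a Polycomb complex subunit, and Asns (8.477 and 7.384), the asparagine synthetase gene, had no FLAG peak in either list. SMC3 was present at these 5 sites in the 8 other mutants.

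The gained peaks with the highest values were at FLAG sites. Among those at K365T FLAG peaks, the highest, 26.55, lay 5.80 kb from Ankrd60 (chr2:173560478-173562860) outside the WT FLAG list, and 8 of 8 other mutants had SMC3 there, so WT was the only list without a peak. Near Cyp19a1, the aromatase gene (chr9:54162986-54163583, value 17.32), and at the start of G0s2, an inhibitor of lipolysis (chr1:193273267-193273812, value 15.90), no other mutant had one. Efhd1 (16.31) had SMC3 in 1 other mutant and the site 130 kb from Rpap3 (15.05) in 4. At sites of the WT FLAG list the strongest gained peaks were in Cfap65 (18.26), Pde11a (14.13) and St6galnac5 (13.71), near Fgf20 (13.48) and in Ablim1 (13.06). These 5 also overlapped a K365T FLAG peak, and 1 to 4 of the other mutants had SMC3 there. Cfap65, Efhd1 and G0s2 are on chromosome 1 and Fgf20 on chromosome 8.

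The strongest gained peaks without FLAG had lower values. At other CTCF antibody sites the highest were near Ppp1r36 (7.333), absent from every other mutant list, near Mrps18a (6.814) and in Ncan (6.814), a brain proteoglycan gene. The next were near Ctla4 (6.297), an immune checkpoint receptor gene, and in Trim56 (6.246). Away from CTCF they were 42.1 kb from Vegfa (6.672), the vascular growth factor gene, in Zfp957 (6.530), and near Atf1 (6.377), Olfr281 (6.246) and Map3k14 (6.207), which encodes the NF-κB-inducing kinase. SMC3 was present at the Atf1 site in 7 other mutants and at the Zfp957 site in none.

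Genes of the pluripotent state kept most of their SMC3 peaks. Within 10 kb of the 20 genes of that list 207 of 271 WT peaks were kept (76.4%), beside 57.8% of all WT peaks, and 11 of 11 at WT FLAG sites. Around Nanog 17 of 17 were kept and around Pou5f1, which encodes Oct4, 12 of 13. Around Esrrb, an orphan nuclear receptor, 41 of 56 were kept, and around Klf4 14 of 16. Around Sox2 6 of 10 were kept. The list's strongest lost peak was in Sall4 (4.143) and its strongest gained peak near Tfcp2l1 (5.002), a chromosome 1 gene with 16 WT and 31 K365T peaks. In K365T 149 of the list's peaks were gained (44.0%, beside 52.6% of all K365T peaks), and 68 of these were on chromosomes 1, 8 and 11. Strength was not matched in these counts.

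Ribosomal protein genes, as a housekeeping set of 81, kept 346 of 517 peaks (66.9%, beside 57.8% of all WT peaks), and 36 of 36 at WT FLAG sites, where 90.0% of all peaks were kept. Of all WT peaks within 1 kb of a gene start 68.5% were kept. Neither location nor strength was matched in the counts of any gene list. Cohesin subunits and their regulators kept 38 of 72 (52.8%), with 10 of 10 at WT FLAG sites, and 18 of 55 K365T peaks there were gained (32.7%, beside 52.6% of all). Of the 34 lost peaks of that list, 16 lay around a single gene, Pds5b, where 2 of 18 were kept. The strongest lost peak of that list (4.128) lay within 10 kb of Pds5a, a regulator of cohesin release. Its nearest gene was Ube2k, 1.65 kb away, and 8 of 8 other mutants had SMC3 there. The strongest gained one (8.270) lay within 10 kb of Ctcfl, the germline paralogue of Ctcf, in the gene body of Gm40011. It was at a K365T FLAG peak outside the WT FLAG list. Near ribosomal genes the highest lost value, 4.143, was shared by peaks at Rps12 and Rps19, and the highest gained value was at Rps29 (6.104).

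The protocadherin clusters, whose promoter choice uses CTCF and cohesin, kept 37 of 51 SMC3 peaks (72.5%) but 11 of 15 at WT FLAG sites, beside 90.0% of all peaks of that class. The clusters differed. Around Pcdhga1, in the γ cluster, 34 of 42 were kept, with 9 of 9 at WT FLAG sites. Around Pcdha1, in the α cluster, 1 of 4 was kept, with 0 of 2 at WT FLAG sites. At the α cluster a gained peak with a value of 7.098 overlapped a K365T FLAG peak, lay in the span of Pcdha10 and was absent from the WT FLAG list; 2 of the 8 other mutants had SMC3 there. At the β cluster the peak next to Pcdhb8, with a value of 4.403, was lost together with FLAG. Members of a cluster share peaks, since their 10 kb windows overlap. Hox genes, which set position along the body axis, kept 42 of 63 (66.7%) and 13 of 13 at WT FLAG sites, beside 57.8% and 90.0% of all peaks. Their strongest gained peak was in Hoxa3 (10.22), at a K365T FLAG peak outside the WT FLAG list, and their strongest lost one near Hoxc10 (3.475).

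Around imprinted genes 55 of 93 SMC3 peaks were kept (59.1%) and 11 of 12 at WT FLAG sites, close to the 57.8% and 90.0% of all peaks. The highest lost value, 5.213, was shared by peaks at Kcnk9 and Kcnq1, both potassium channel genes, and at Zim1; the strongest gained peak lay near Commd1 (6.465) on chromosome 11, at a site with FLAG in both genotypes and SMC3 in no other mutant. No SMC3 peak of either list lay within 10 kb of H19, a maternally expressed lncRNA gene. Neural genes kept 18 of 27 (66.7%, beside 57.8% of all) and 5 of 5 at WT FLAG sites, with the strongest lost peak near the start of Nes (3.768), which encodes nestin. Their strongest gained one was at the start of the Notch target Hes5 (5.253), with K365T FLAG and in no other mutant list. Trophoblast genes kept 34 of 57 (59.6%, close to the 57.8% of all) and 9 of 9 at WT FLAG sites. Krt8 (3.876), a keratin gene, had the strongest lost peak of that list and Hand1 (4.259) the strongest gained one.

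Genes of mesoderm and endoderm kept 17 of 35 SMC3 peaks (48.6%) and 6 of 9 at WT FLAG sites, beside 57.8% and 90.0% of all peaks. Gata4, Gata6 and Foxa1 together kept 2 of 16, and the other members kept 15 of 19, among them Mesp1 with 3 of 3, Eomes with 3 of 4 and Sox17 with 2 of 2. Around Gata4, a cardiac and endodermal transcription factor, 1 of 5 peaks was kept, and the strongest lost peak of the list, 5.337, lay in Gata4 at a WT FLAG peak without K365T FLAG; 3 of the 8 other mutants had SMC3 there. Around Gata6 1 of 8 was kept, and around Foxa1, a pioneer factor, 0 of 3. The share kept of all WT peaks differed between their chromosomes. It was 47.2% on chromosome 12 (Foxa1), 48.2% on 14 (Gata4) and 51.6% on 18 (Gata6). It was 54.7% on chromosome 9 (Eomes), 59.7% on 7 (Mesp1) and 78.9% on 1 (Sox17). Without chromosomes 1, 8 and 11 the list kept 13 of 30 peaks. Numbers per list are small, and no test of a list against the other genes was made. Gata6, Foxa1, Mesp1, Eomes, Sox17, H19, Kcnq1, Zim1, Rps19 and the individual pluripotency genes other than Sall4 and Tfcp2l1 were picked after their values were seen. The counts around Pds5b, Pcdha1 and Pcdhga1, and the grouping of Gata4, Gata6 and Foxa1, were picked in the same way.

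Set beside the other mutants against the same WT list, K365T kept 57.8% of WT SMC3 peaks, where R342C kept 73.3%, R377H 69.0%, R448Q 77.8% and H455R 60.2%. At WT FLAG peaks K365T kept 90.0%, beside 96.6% in R342C, 91.4% in R377H, 98.0% in R448Q and 78.3% in H455R. The K365T list with 88092 peaks is the shortest of these 5, and that of R448Q with 153647 the longest. Lists with other tags kept 50.5% (R339Q, tag b2), 53.7% (S354F, tags b1 and b2), 60.7% (R377C, tags b1 and b2) and 29.3% (Q418R, tag b3). The tag is read from the names inside the lists; its meaning is not given in the sources used here, and it cannot be told apart from genotype for those mutants. Q418R has the shortest list, 42030 peaks, and kept the least, and R448Q with the longest list kept the most. The order between them did not follow list length strictly. R339Q, with 94978 peaks, kept less than K365T. What part list length has in the share kept was not tested.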

How the data were processed

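The deposited files are peak lists, 1 per antibody and genotype; each pools replicates 1 and 2 by its title, so replicates cannot be compared, and nothing says whether they were separate cultures. Per the submitters' processing notes, reads were handled with Bowtie2, deepTools, MACS2 and Trim Galore on mm10, with versions and settings not given in the sources used here. The fifth column is a score that the authors deposited without a name, so it was compared only within 1 list or within bins matched on WT score. The depth of the libraries is unknown, which also sets how many peaks are called. Both SMC3 lists carry the tag b1 in column 4 for both libraries. The codes that begin with CMP in the K365T and WT SMC3 names also stand in their FLAG lists, and the labels do not say what they mean. The names in the FLAG lists carry replicate numbers that differ at least in part from those of the titles, so which libraries they pool rests on the titles alone. Running numbers in the names lack 1.63% of WT and 1.59% of K365T SMC3 peaks, so peaks may have been removed before deposit; 1.26% of lost and 1.41% of gained peaks lie beside such gaps.

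Repeated FLAG intervals (1 per summit) were merged. Sharing took an overlap of 1 bp, found with scripts in Python 3.11.15 with numpy 2.4.6 and pandas 2.3.3 and tested on simulated data and against bedtools 2.31.1. Wilson and Newcombe intervals (95%, checked with scipy 1.17.1) cover counting error only. Figures were drawn with matplotlib 3.10.9. Gene spans and promoter windows (300 bp) are from RefSeq GRCm38.p6; spans give no exons, and the nearest protein-coding gene names a site. Named sites are the 5 strongest by score in each class of lost, kept and gained peaks, without a peak of the other list within 500 bp for lost and gained ones, and per gene list the strongest lost and gained peak within 10 kb; every member of the 9 lists matched a symbol. Some sites that this rule takes are left out of the text. The promoters printed were the strongest in their state. Members, classes and lists were chosen with earlier results of these data known. The alternatives tried were a reciprocal overlap of 50%, a match within 500 bp, the upper 50% of each list, equal numbers of peaks, the treated CTCF antibody list alone and standardisation over deciles. Leaving out chromosomes 1, 8 and 11, and the split of other mutants by K365T FLAG, were chosen after seeing the data. The IgG control and FLAG without treatment were not analysed here.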

Additional observations from a re-analysis of the deposited data

How the results depend on the processing

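The order of the 3 classes was the same under each alternative that gave class shares, but shares depend on what counts as a match. Only the difference by K365T FLAG had a sign that could reverse, and it did not. Of 34 alternatives computed, 32 lay outside the interval of the main result and 2 within it. No alternative matched the 3 classes on strength. In deciles 9 and 10 of the WT list the share kept was highest away from both, so the class order does not hold at every strength. The share kept of all WT peaks was 36.4% with a reciprocal overlap of 50%, 67.7% with a match within 500 bp, 61.7% in the upper 50% of each list, 52.9% with equal numbers of peaks and 54.6% without chromosomes 1, 8 and 11. In the same order it was 71.1%, 90.8%, 88.0%, 89.0% and 88.7% at WT FLAG peaks, and 32.3%, 71.0%, 52.6%, 52.4% and 54.8% at other CTCF antibody peaks. Away from both it was 27.4%, 58.1%, 46.1%, 41.2% and 44.1%, and 48.9% with the treated CTCF antibody list alone, which left the other CTCF class at 57.0%. The gained share was 70.3%, 42.2%, 49.3%, 47.5% and 45.1%. The difference by K365T FLAG was 26.1, 18.7, 24.6, 22.3 and 21.5 points, and 13.9 and 17.1 points standardised over deciles of WT SMC3 and WT FLAG value. A stricter overlap counts shifted edges as loss by its construction, and equal numbers drop the weakest K365T peaks. No paired analysis was possible because each list pools both replicates; for the same reason no replicate could be left out. Depth limits the lists: an absent peak is not absent cohesin.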
